A study of Xenopus laevis with 6 samples.

Results

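The genes described are products and regulators of goblet cells and small secretory cells, the mucus-making and serotonin-containing cells of the larval frog skin. They were chosen as every copy of 10 gene symbols, namely itln1, itln2, otog, otogl, muc2l, agr2, agr3, foxa1, tph1 and slc18a2, which gave 12 of the 42638 genes in the count table. Transcripts were compared between basal Xenobots and age-matched embryos of Xenopus laevis, wild type and without treatment in both groups. Xenobots came from ectoderm (animal caps) cut out at stage 9 and kept for 7 days at 14 °C in 0.75X MMR, a salt solution, and each of the 3 pools held 50 of them. The embryos were intact siblings kept at the same temperature in 0.1X MMR until stage 35, with 10 embryos in each of 3 pools. Medium and group therefore changed together and cannot be told apart in these libraries. The study also compared embryos raised in both media, in libraries not analysed here. The question was which transcripts ectodermal cells carry once they are outside the embryo, and for these genes whether the secretory program of the skin was present in Xenobots at the level seen in whole embryos.

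The skin of a Xenopus larva is a mucociliary epithelium. Goblet cells cover most of its surface and release mucus, multiciliated cells move that mucus, ionocytes carry ions, and small secretory cells release serotonin and further secretory material. Mucus is built from large glycoproteins that link through disulfide bonds, which are formed in the endoplasmic reticulum before the proteins are packed into granules. Many of the same genes also serve other organs of an embryo, such as gut, inner ear and the cement gland, the adhesive organ of the larval head.

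Library totals ran from 13597500 to 20325100 estimated counts in Xenobot pools and from 17533200 to 22225100 in embryo pools, and ribosomal RNA genes took 26.4 to 36.9% and 27.1 to 40.7% of them. Values are given as CPM (counts scaled to a common library size), scaled with TMM factors. A gene was tested where it exceeded 0.6 CPM in at least 3 libraries, which held for 26752 genes and for 10 of the 12 described. A gene was called changed at a Benjamini-Hochberg adjusted p under 0.05 with a log2 fold change above 2 or below -2. Intervals and adjusted p-values below are from limma-voom unless another tool is named. The label could be checked only in part. The goblet genes itln1.L, agr2.L and agr2.S and the small secretory cell regulators foxa1.L and foxa1.S were read in every pool, whereas slc18a2.L had at most 2 counts in any of the 6.

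The goblet and small secretory cell genes did not move together. Past both thresholds 1 of the 10 tested genes was higher in Xenobots (itln1.L) and 4 were lower (otog.L, otogl.L, muc2l.L and agr3.L), beside a background of 5.75% higher and 20.5% lower over all tested genes. On the adjusted p alone, 3 were higher and 6 lower, against 29.6% and 36.2% of all tested genes. The median log2 fold change was -1.40 over the 10 genes and -0.07 over all tested genes. Xenobot and embryo values did not overlap for any of the 10, as held for 71.7% of all tested genes. These are RNA levels of whole pools, so that fewer cells of a type and less RNA per cell cannot be told apart. Xenobots come from ectoderm alone, which the paper describes as a small part of a whole embryo. Genes of ectoderm can therefore be enriched in Xenobot pools by proportion, as the paper also states. How far this enters the changes given here was not tested.

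**Figure D1:**
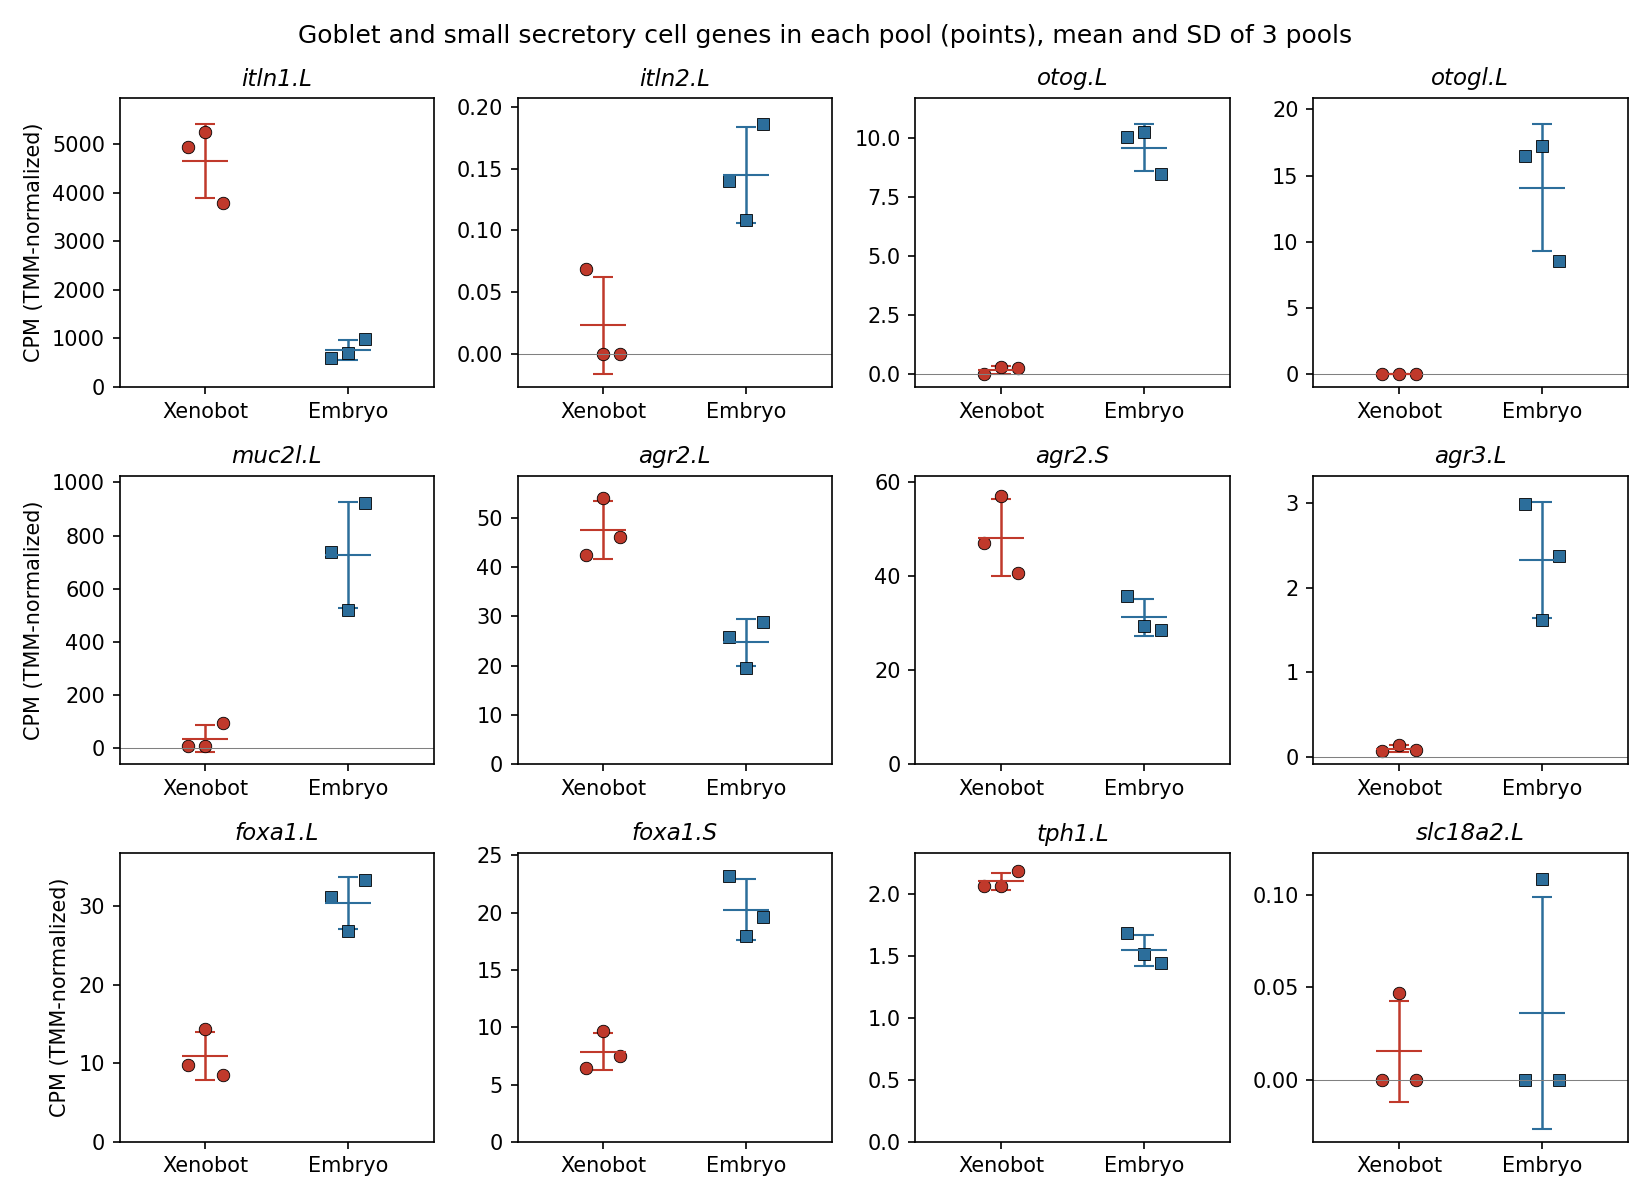
CPM of each of the 12 genes in the 3 Xenobot pools (circles, left) and the 3 embryo pools (squares, right), with the mean and SD as bars and a separate linear axis per gene. Expression of itln1.L, agr2.L and agr2.S is higher in every Xenobot pool than in any embryo pool, otog.L, otogl.L, muc2l.L, agr3.L, foxa1.L and foxa1.S are lower, and itln2.L and slc18a2.L lie near 0 in both groups.

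The intelectin gene itln1.L (assembly Xenopus_laevis_v10.1, as for all positions, chromosome 7L, 33159225 to 33176176), also known as xeel, encodes a secreted lectin that binds microbial sugars. It stood at 4934, 5250 and 3786 CPM in Xenobot pools 1, 2 and 3, and at 602, 697 and 989 CPM in embryo pools 1, 2 and 3. The lowest Xenobot pool was thus 3.83 times the highest embryo pool. The log2 fold change was 2.62 (SE 0.20, adjusted p = 2.96e-06), or 6.15-fold. A single gene therefore took 0.332 to 0.5498% of all reads in Xenobots, against 0.0684 to 0.0956% in embryos. Its relative itln2.L (chromosome 9_10L, 77437079 to 77448515), a second intelectin, was read 1, 0 and 0 times in Xenobot pools, against 3, 2 and 4 times in embryo pools. It fell under the expression filter, and no fold is given because Xenobot values lie under the floor of 3 counts and embryo values close to it.

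Among the chosen genes, those for large mucus glycoproteins (muc2l.L, otog.L and otogl.L) were lower in Xenobots. The gene muc2l.L (chromosome 4L, 19705852 to 19741623) is named for its likeness to the gel-forming mucin that coats the mammalian intestine. It stood at 5.28, 6.61 and 92.8 CPM in Xenobot pools 1, 2 and 3, and at 738, 520 and 921 CPM in embryo pools. Xenobot pool 3 stood far above the other two, yet the lowest embryo pool was still 5.61 times as high as that pool. The log2 fold change was -5.75 (SE 0.80, adjusted p = 0.000128), which on the fitted scale is 53.9-fold lower, while the ratio of the means was 20.8. The size of this change rests on pool 3. It was -6.87 on the log2 scale without Xenobot pool 3, without pool 1 or pool 2 it was -4.99 or -5.09, and edgeR and DESeq2 gave -4.40 and -4.42, all with an adjusted p under 0.05.

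The otogelin genes encode mucin-like glycoproteins best known from the membranes that cover the sensory cells of the mammalian inner ear. No read of otogl.L (chromosome 3L, 59405491 to 59503052) was counted in any Xenobot pool. Embryo pools held 16.5, 17.2 and 8.56 CPM. Against the floor of 3 counts in each Xenobot library, otogl.L was at least 70.5-fold lower in Xenobots (adjusted p = 8.9e-06). The related gene otog.L (chromosome 4L, 297573 to 368296) was read 0, 7 and 3 times in Xenobot pools, or 0, 0.329 and 0.252 CPM, against 10.05, 10.3 and 8.47 CPM in embryo pools. The lowest embryo pool was 25.7 times the highest Xenobot pool. Its log2 fold change was -5.93 (SE 0.64, adjusted p = 2.22e-05), which became -4.88 without Xenobot pool 1, -6.57 without Xenobot pool 2 and -3.84 in the deposited adjusted values, all still past both thresholds.

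A further otogelin gene lies outside the symbols chosen and was picked after its values were seen. This gene, otogl2.L (chromosome 7L, 118823644 to 118875801), carries otog among its synonyms in the annotation. It stood at 2643, 3332 and 4658 CPM in Xenobot pools, against 995, 1039 and 1353 CPM in embryo pools. Every Xenobot pool exceeded every embryo pool. Its log2 fold change was 1.63 (SE 0.21, adjusted p = 6.46e-05), which is short of the fold threshold. The otogelin family thus contained a gene that rose in Xenobots beside the pair otog.L and otogl.L that fell. RSEM divides reads that fit several genes between them by estimation, so reads shared within the family could be split.

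The agr genes encode protein disulfide isomerases of the endoplasmic reticulum. In mice, AGR2 is needed to make the intestinal mucin, and in Xenopus agr2 is also known from the cement gland. The copy agr2.L (chromosome 6L, 38033073 to 38038018) stood at 42.4, 54.0 and 46.0 CPM in Xenobots, against 25.8, 19.6 and 28.8 CPM in embryos. The copy agr2.S (chromosome 6S, 30062601 to 30069427) stood at 46.99, 57.0 and 40.7 CPM in Xenobots and 35.8, 29.4 and 28.6 CPM in embryos. All 3 Xenobot pools lay above all 3 embryo pools for both copies, with log2 fold changes of 0.95 (SE 0.15, adjusted p = 0.000369) and 0.62 (SE 0.14, adjusted p = 0.00348). Neither reached the fold threshold, and for agr2.S the adjusted p was above 0.05 with scaling to total counts (log2 fold change 0.47, adjusted p = 0.0679) and in the deposited adjusted values (0.23, adjusted p = 0.0831).

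Directly beside agr2.L on chromosome 6L, with 0 annotated genes and 32676 bases between them, lies agr3.L (38070695 to 38098124), a paralog. It had 1, 3 and 1 counts in Xenobot pools, against 64, 30 and 51 counts in embryo pools, or 2.99, 1.62 and 2.37 CPM in embryos. It was at least 11.7-fold lower in Xenobots (adjusted p = 3.53e-05). The neighbours agr2.L and agr3.L thus differed in opposite directions between the same pools. A further pair on chromosome 4L, otog.L and tph1.L, is separated by 123485 bases and 3 annotated genes. There otog.L fell, and tph1.L did not pass the test.

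Genes tied to small secretory cells were lower or did not pass the test. The forkhead factor foxa1 is required for these cells in the Xenopus skin, and it also acts in endoderm and its organs. Its copy foxa1.L (chromosome 8L, 101205345 to 101210121) stood at 9.83, 14.4 and 8.56 CPM in Xenobots, against 31.2, 26.9 and 33.4 CPM in embryos. The other copy, foxa1.S (chromosome 8S, 3240818 to 3246366), stood at 6.46, 9.64 and 7.47 CPM in Xenobots, against 23.1, 17.96 and 19.6 CPM in embryos. Both fell, by 1.46 (SE 0.18, adjusted p = 6.19e-05) and 1.34 (SE 0.17, adjusted p = 8.19e-05) on the log2 scale, in 3 of 3 Xenobot pools. Transcripts of foxa1 were still read in every Xenobot pool, unlike those of the related endoderm factor foxa2.L. That gene had 1, 3 and 0 counts in Xenobot pools, and its embryo mean was 15.8 times the floor of 3 counts.

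Tryptophan hydroxylase 1, the product of tph1, catalyses the first step of serotonin synthesis outside the brain. The gene tph1.L (chromosome 4L, 491782 to 500495) stood at 2.06, 2.07 and 2.18 CPM in Xenobots, against 1.68, 1.51 and 1.44 CPM in embryos. All Xenobot values lay above the embryo values, by a log2 fold change of 0.44 (95% interval -0.12 to 0.99, adjusted p = 0.144) that did not pass the test. With 26 to 44 counts per pool in Xenobots and 28 to 36 in embryos, counting error alone is large. The transporter gene slc18a2.L (chromosome 3L, 137283488 to 137301857), which fills vesicles with monoamines, had 0, 1 and 0 counts in Xenobots and 0, 2 and 0 in embryos. It was not detectable above the floor of 3 counts in either group, and no fold is given.

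**Figure D2:**
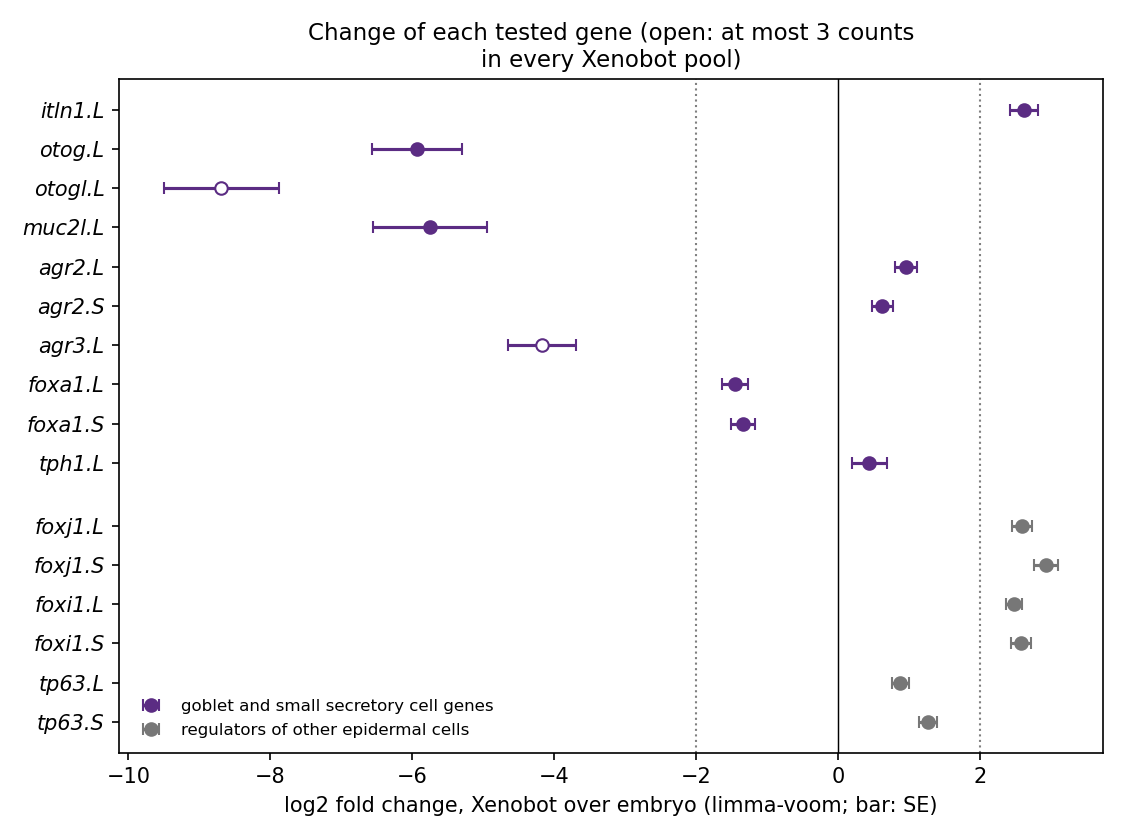
Log2 fold change of Xenobots over embryos (limma-voom, bars are the SE, dotted lines the thresholds of -2 and 2) for the 10 tested goblet and small secretory cell genes, and below them for regulators of multiciliated cells (foxj1), ionocytes (foxi1) and basal epidermis (tp63). The values run from -8.69 for otogl.L, an open point whose fitted size depends on values at the count floor, to 2.62 for itln1.L, which lies among the 4 values of foxj1 and foxi1.

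Both copies of a homeologous pair were tested for 2 of the symbols. For agr2 the L copy held 47.5, 48.7 and 53.0% of the summed CPM of both copies in Xenobot pools, against 41.9, 39.95 and 50.2% in embryo pools. Those ranges overlapped, and the log2 ratio of L to S differed by 0.33 (SE 0.15, adjusted p = 0.106 over 6667 pairs in limma). For foxa1 the L copy held 60.3, 59.8 and 53.4% in Xenobots, against 57.4, 59.95 and 62.95% in embryos, and the difference was -0.15 (SE 0.15, adjusted p = 0.455). Neither pair passed a test that 47.7% of all pairs passed. For agr2 the call depended on the fit, with an adjusted p of 0.0244 with a replicate block and 0.0139 without embryo pool 3.

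Because the genes moved in different directions, their proportions shifted. Among the summed CPM of the 12 genes, itln1.L held 96.7% ± 1.47 for Xenobots against 46.9% ± 5.88 for embryos (SD, n = 3 each). The share of muc2l.L was 0.105, 0.122 and 2.33% in Xenobot pools 1, 2 and 3, against 49.6, 38.8 and 45.1% in embryo pools. Within these 12 genes, the mixture in embryos was thus divided mainly between a lectin and a mucin, and in Xenobots it was almost wholly the lectin. The shares depend on the symbols chosen. The otogelin gene otogl2.L, outside the 12, stood at 2643, 3332 and 4658 CPM in Xenobots, against 995, 1039 and 1353 CPM in embryos. In Xenobot pools 1, 2 and 3 itln1.L stood at 4934, 5250 and 3786 CPM. The ratio of itln1.L to muc2l.L was 935, 795 and 40.8 in Xenobot pools, against 0.815, 1.34 and 1.07 in embryo pools. These are shares of reads and not of molecules, since reads also grow with transcript length.

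**Figure D3:**
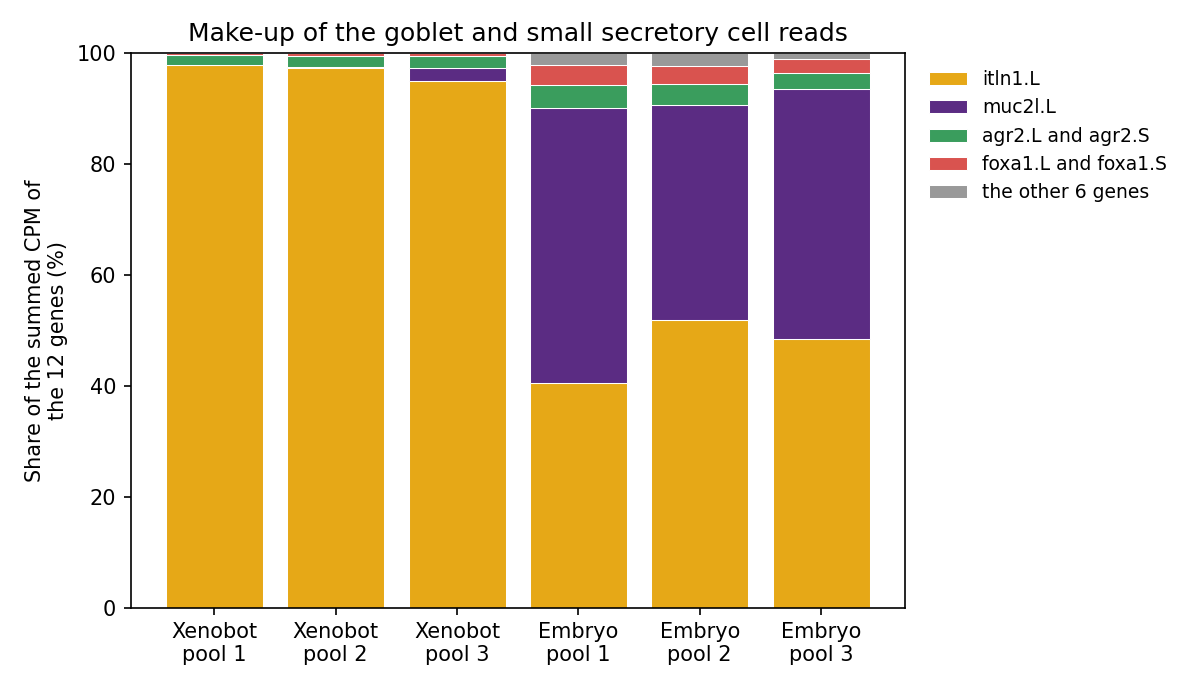
Share of the summed CPM of the 12 genes taken by itln1.L, muc2l.L, both copies of agr2, both copies of foxa1 and the other 6 genes, as stacked bars for Xenobot pools 1 to 3 and embryo pools 1 to 3. Bars of Xenobots are filled almost wholly by itln1.L, with 2.33% muc2l.L visible in pool 3, while embryo bars are divided between itln1.L and muc2l.L. The otogelin gene otogl2.L is outside the 12 genes and not in the bars.

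Regulators of the other epidermal cell types gave a scale for these changes. The multiciliated cell factor foxj1 rose by 2.59 (foxj1.L) and 2.93 (foxj1.S) on the log2 scale, and the ionocyte factor foxi1 by 2.48 (foxi1.L) and 2.58 (foxi1.S). The basal cell factor tp63 rose less, by 0.87 (tp63.L) and 1.26 (tp63.S). With copies summed, the ratio of itln1 to foxi1 was 60.4, 60.6 and 49.5 in Xenobot pools, against 43.5, 46.2 and 69.9 in embryo pools, and that of itln1 to foxj1 was 109, 107 and 75.2 against 95.4, 101 and 124. Both ratios overlapped between the groups. The ratio of itln1 to tp63 was higher in Xenobots, at 36.8, 45.1 and 31.0 against 10.6, 12.3 and 13.9 in embryos.

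For foxa1, agr2 and muc2l the same ratios were lower in every Xenobot pool than in any embryo pool, except that of agr2 to tp63. For foxa1 to foxi1 the ratio was 0.199, 0.277 and 0.210 in Xenobots, against 3.93, 2.97 and 3.75 in embryos, and the means differed by 15.5-fold. Embryo pools are whole embryos, so foxa1 reads of endoderm and its organs can enter their ratios, and that part was not tested. For foxa1 to tp63 it was 0.121, 0.206 and 0.131 against 0.955, 0.789 and 0.745. For agr2 to foxi1 it was 1.09, 1.28 and 1.13 in Xenobots against 4.46, 3.25 and 4.06 in embryos. The ratio of agr2 to tp63 overlapped between groups, at 0.666, 0.954 and 0.709 against 1.08, 0.862 and 0.807. Of itln1, agr2, foxa1 and muc2l, only itln1 had ratios to the ionocyte and multiciliated cell factors whose ranges overlapped between groups. Exact permutation of 3 pools against 3 cannot give a two-sided p under 0.1, so ratios are given as values without a test. Not all of the 13 ratios computed are printed.

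Markers of embryonic organs in which some of these genes are also known were read beside them. Of the gut endoderm markers 31 of 32 tested copies were called lower and 0 higher, with a summed level of 6.26 to 7.73 CPM in Xenobots and 246 to 306 CPM in embryos. Over all tested genes 20.5% were called lower and 5.75% higher. The largest falls in this list were of fabp2.L, sox2.L, shh.L and shh.S. Whether each of its genes is confined to gut at this stage was not tested. The defining gene hnf4a.S, a regulator of gut and liver, stood at 0.344, 0.141 and 0.0839 CPM in Xenobots and 17.4 to 23.9 CPM in embryos, and 27 of 39 copies did not exceed 3 counts in any Xenobot pool. Inner ear markers had 14 of 22 copies lower and 1 higher, at a sum of 183 to 247 CPM in Xenobots and 430 to 487 CPM in embryos. On the adjusted p alone 15 were lower and 5 higher, where all tested genes had 36.2% lower and 29.6% higher. The copy called higher, named after its values were seen, was loxhd1.L (mean 40.0 against 4.97 CPM, log2 fold change 2.99). The largest falls were of the collagen genes col9a2.S and col9a2.L, then oc90.S and col9a1.L. Much of the embryo sum came from these collagens, with embryo means of 102 (col9a2.S), 89.0 (col9a2.L) and 127 CPM (col9a1.L). Their Xenobot means were 0.121, 0.216 and 0.881 CPM. Whether they are confined to the inner ear at this stage was not tested. The otoconial gene oc90.S was at 0 in all Xenobot pools, against 7.49 to 16.1 CPM in embryo pools. Its other copy oc90.L stood at 0.0687, 0.0470 and 0 CPM, against 6.98 to 9.49 CPM in embryo pools. Of the cement gland markers 4 of 10 were lower and 0 higher, with a sum of 91.9 to 115 CPM in Xenobots and 165 to 198 CPM in embryos. On the adjusted p alone 5 were lower and 2 higher, beside the same 36.2% and 29.6% of all tested genes. The gut markers thus fell nearly as a whole beside muc2l.L, otog.L, otogl.L, agr3.L and foxa1, and the other lists in part. Their part in these results was not tested.

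Beside the high muc2l.L value of Xenobot pool 3, the gut markers summed to 6.88, 7.73 and 6.26 CPM in Xenobot pools 1, 2 and 3. Most of the gut markers lay at or under the floor of 3 counts. The cement gland markers summed to 98.4, 91.9 and 115 CPM in the same pools. The inner ear markers summed to 210, 183 and 247 CPM, and both of these lists were highest in pool 3. The part of any of these lists in the muc2l.L value was not tested. Among 11301 tested genes averaging 10 CPM or more in Xenobots, muc2l.L was the only gene whose highest Xenobot pool reached 10 times the next, at 14.1 times. At a ratio of 5 the number was 1 gene for pool 1, 1 for pool 2 and 2 for pool 3. However, muc2l.L reached a mean of 10 CPM only through pool 3, at 5.28, 6.61 and 92.8 CPM in the 3 pools. Genes with like levels in 2 pools and a smaller rise in 1 could miss that limit. How rare such a pattern is cannot be read from these numbers. The goblet gene itln1.L was lowest in pool 3, while otogl2.L was highest there. Apart from muc2l.L, those of the 12 genes read in every Xenobot pool at more than 1 CPM varied by at most 1.68 times between Xenobot pools, the value of foxa1.L.

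Genes with the pattern nearest to 5 of the genes over the 6 pools were found by Euclidean distance between centred log2 CPM values, among 10037 named genes averaging 10 CPM or more. Nearest to itln1.L were tekt4.S (distance 0.227), a tektin of ciliary axonemes, retsat.L (0.241), a retinol saturase, and hexdl.L (0.289). For otog.L they were hs3st3a1.S, ptch1.S and tubb2b.L (0.220 to 0.323), and for otogl.L islr2.L, celf3.L and vamp2.L (0.387 to 0.427), of which celf3 and vamp2 are known from neurons. For agr3.L they were basp1.L, jade3.S and col9a3.S (0.376 to 0.431). The log2 values held a prior of 0.5 CPM, which shrinks the changes of genes near the floor. In the fit the neighbours of agr3.L fell less than agr3.L (-2.18 to -2.39 against -4.17 on the log2 scale). So did those of otog.L (-4.03 to -4.36 against -5.93) and of otogl.L (-5.57 to -6.45 against -8.69). The nearest genes to muc2l.L, xa-1.L, nlgn3.L and nr2f1.L, lay at 2.03 to 2.69, so that no gene followed it closely. With 6 pools in 2 groups such likeness rests mainly on the difference between groups.

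Genes for building and releasing mucus were taken from lists of related function. In the list of gel-forming mucins and mucus matrix proteins vwf.L, a gene of blood vessels, was the 1 copy of 4 that was tested, at 22.5, 40.9 and 8.06 CPM in Xenobots and 27.2, 25.2 and 25.0 CPM in embryos (log2 fold change -0.30, 95% interval -1.27 to 0.66, adjusted p = 0.554). The membrane mucin gene muc1, whose product stays on the cell surface, had mean levels of 34.3 ± 10.2 CPM across Xenobot pools and 9.27 ± 1.51 CPM across embryo pools for muc1.L, and of 26.9 ± 2.44 against 14.1 ± 1.77 CPM for muc1.S (SD, n = 3 throughout). Both copies of muc1 rose, by 1.83 (adjusted p = 5.83e-05) and 0.93 (adjusted p = 0.000131) on the log2 scale, and neither passed the fold threshold. Outside the lists, and picked after their values were seen, the mucin-named gene muc22.S stood at 28.1, 24.1 and 65.4 CPM in Xenobots, against 4.72, 3.79 and 9.73 CPM in embryos (log2 fold change 2.61, SE 0.45, adjusted p = 0.000519). The gene muc5acl.S, named for its likeness to a gel-forming mucin of mammalian airways, stood at 0.962, 0.846 and 0.923 CPM in Xenobots, against 0.514, 0.487 and 0.279 CPM in embryos (log2 fold change 1.10, SE 0.39, adjusted p = 0.0291), on 6 to 18 counts per pool. The other copy, muc5acl.L, had 6, 1 and 1 counts in Xenobots, against 0, 0 and 7 in embryos, and was not tested. Of the 18 symbols in the list of gel-forming mucins and mucus matrix proteins, 3 were found in the count table. Among the tested mucin-named genes given here, muc2l.L was thus lower, and muc1, muc22.S and muc5acl.S were higher. Of the mucin-type O-glycosylation genes, which attach and extend the sugar chains of mucins, 2 of 49 tested copies were called higher and 12 lower, with a median log2 fold change of -0.13, shares near those of all tested genes (5.75% and 20.5%). The higher ones, named after their values were seen, were b3gnt7.L (241 against 33.0 CPM, log2 fold change 2.88) and galnt3.S (67.2 against 13.9 CPM, 2.25), the second an enzyme that begins O-glycan chains. The largest falls were of galnt17.S, galnt13.S, galnt9.S and galnt9.L, at least 38.7, 12.5, 18.2 and 19.6-fold, members of that enzyme family known mainly from the nervous system. The summed level of the list was 975 to 1126 CPM in Xenobots and 517 to 548 CPM in embryos. Among protein disulfide isomerases of the endoplasmic reticulum 0 of 29 were higher and 3 lower (pdia2.L, pdia2.S and erp29.S), with a median of -0.12, and pdia2 is best known from the pancreas.

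Of 29 copies of secretory cell transcription factors 7 were called higher and 6 lower (median 0.14), where all tested genes had 5.75% higher and 20.5% lower. The higher ones, named after their values were seen, were both copies of elf3, grhl1 and grhl3, epithelial factors, and creb3l4.L, with log2 fold changes from 2.02 (elf3.S) to 3.28 (elf3.L). The largest falls were gfi1.L, atoh1.S, foxa2.L and foxa4.S, and gfi1 and atoh1 are also sensory cell factors. The gene spdef.S, a regulator of mammalian goblet cells, stood at 4.19, 4.65 and 4.2 CPM in Xenobots and 8.46, 5.09 and 4.65 CPM in embryos (log2 fold change -0.42, 95% interval -0.99 to 0.16, adjusted p = 0.176). Of 44 copies of regulated exocytosis genes 4 were higher and 22 lower. Those higher were both copies of rab3d, a granule GTPase of exocrine cells, with sytl4.L and sytl1.S, at 2.03 to 2.30 on the log2 scale. Among those that fell were pcsk2.S, snap25.S and pcsk2.L, genes of neurons and endocrine cells. The number of higher exocytosis genes was 1 without embryo pool 2, 1 with scaling to total counts and 7 without embryo pool 3.

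Genes of serotonin and monoamine handling held 2 of 23 tested copies called higher and 7 lower (median log2 fold change -0.87), where all tested genes had 5.75% higher and 20.5% lower. The higher ones, named after their values were seen, were htr3a.L and slc18a1.S. The gene slc18a1.S, a relative of slc18a2, encodes another vesicular monoamine transporter. It stood at 37.5, 42.0 and 45.6 CPM in Xenobot pools, against 8.16, 8.60 and 12.8 CPM in embryo pools, with a log2 fold change of 2.10 (SE 0.17, adjusted p = 3.94e-06). The serotonin-gated channel gene htr3a.L stood at 119, 129 and 99.1 CPM in Xenobots, against 13.6, 14.7 and 18.6 CPM in embryos (log2 fold change 2.89, SE 0.15, adjusted p = 4.88e-07). Both were higher in 3 of 3 Xenobot pools. The decarboxylase gene ddc.L, whose product completes serotonin synthesis, averaged 3.85 ± 0.571 CPM across Xenobot pools against 6.57 ± 1.63 CPM across embryo pools (SD, n = 3 each, adjusted p = 0.0245). Levels of the serotonin transporter gene slc6a4.L overlapped between groups (log2 fold change -0.13, 95% interval -1.14 to 0.87). Genes with the largest falls were th.L, asmt.S, htr1a.S and slc6a3.S. Monoaminergic neuron markers, 7 symbols of which are also in this list, had 8 of 19 copies lower and 0 higher, among them en2.S and th.L, and a summed level of 66.0 to 79.2 CPM in Xenobots that overlapped the 70.7 to 86.9 CPM of embryos. The number of higher monoamine genes was 1 without embryo pool 1 and 1 with scaling to total counts.

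**Figure D4:**
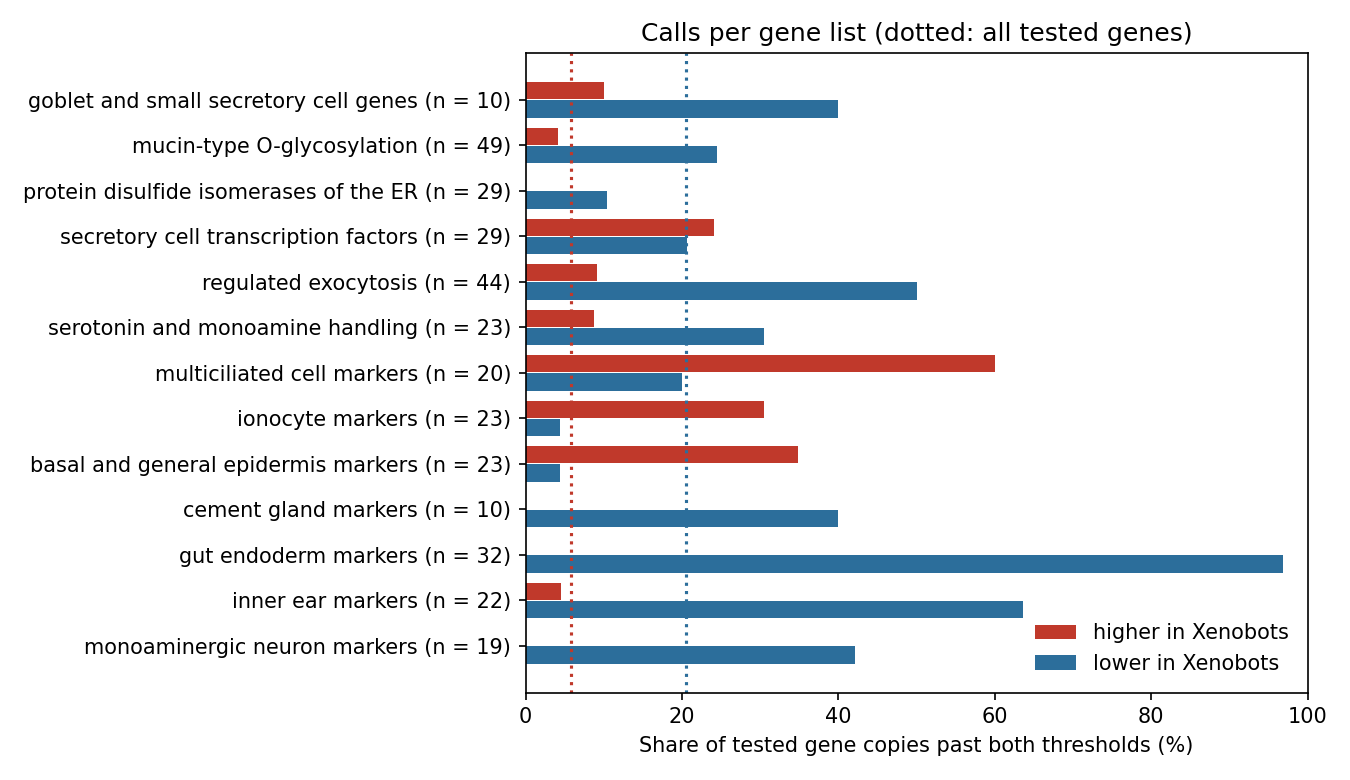
Percent of tested gene copies called higher (upper bar) or lower (lower bar) in Xenobots for the goblet and small secretory cell genes and for 12 further lists, with the number tested in parentheses and the shares of all tested genes, 5.75% higher and 20.5% lower, as dotted lines. Lists of multiciliated cells, ionocytes and basal epidermis have more higher than lower copies, and those of gut endoderm, inner ear, cement gland and monoaminergic neurons more lower than higher.

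For the other cell types of the epidermis, 12 of 20 multiciliated cell marker copies were called higher and 4 lower, 7 of 23 ionocyte copies higher and 1 lower, and 8 of 23 basal and general epidermis copies higher and 1 lower. Over all tested genes 5.75% were called higher and 20.5% lower. The median log2 fold changes of these lists were 2.38, 1.53 and 1.26. Summed levels were 928 to 994 CPM in Xenobots and 353 to 434 CPM in embryos for multiciliated cells, and 825 to 1001 against 399 to 422 CPM for ionocytes. Much of the embryo sum for multiciliated cells came from tubulin genes that are among its lower copies. These were tuba1a.L (mean 4.18 CPM in Xenobots against 147 CPM in embryos) and tuba1a.S (0.144 against 108 CPM). The 10 goblet and small secretory cell genes differed from these lists in having more members lower than higher. Whether the 10 genes differ from the lists beyond what so few genes allow was not tested. Embryo reads of the lower genes can also come from organs other than skin, and that part was not tested. The otogelin gene otogl2.L, higher in Xenobots but short of the fold threshold, is not among the 10.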

How the data were processed

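RNA was sequenced from 3 Xenobot and 3 embryo pools as stranded, ribosome-depleted total RNA. The authors trimmed reads with fastp, aligned them with STAR and deposited estimated counts per gene from RSEM on Xenopus laevis assembly 10.1, with no normalization. The authors also deposited log2 CPM values with surrogate-variable effects removed, used here only as an alternative. How many such variables they removed is not given in the sources used here.

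Counts were used unrounded in limma 3.58.1 (voom) with TMM factors from edgeR 4.0.16 (R 4.3.3). The model held group alone. Genes above 0.6 CPM in at least 3 libraries were tested. Genes were called at a log2 fold change beyond 2 where the p-value adjusted by Benjamini-Hochberg was under 0.05. Homeolog ratios were tested with limma on log2 CPM with a prior of 0.5 CPM. On simulated counts for 26752 genes the fit recovered 200 of 200 changed genes with 0 false calls, and the homeolog test 113 of 113 changed pairs with 2 false calls among 6667. The changes planted were all of 3 on the log2 scale, beyond the threshold, in genes averaging more than 2 CPM. Every gene was given the same dispersion. Full recovery was therefore likely from the settings, and it does not cover smaller changes or more variable genes. In the measured counts 7009 of the 26752 genes were called, and recovery with so many changed genes was not tested. Recovery was also not tested for genes near the count floor, because none of them was changed in the simulation. Where every Xenobot pool had at most 3 counts, the fold is the embryo mean over 3 counts per Xenobot library. It is a bound on the Xenobot side only and does not cover the spread between embryo pools. Floors cover counting error only. Alternatives were edgeR, DESeq2 1.42.0 (both on rounded counts), other scalings and filters, a replicate block, the adjusted values, summed homeologs and leaving out each pool, and, added after seeing the data, a fit without rRNA genes.

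The study's methods describe replicates in general as biological samples from separate batches, and the labels do not say which batch each pool came from. The limma p-values set the difference between groups against the spread between these pools, with variances moderated by those of all genes. How far that spread covers variation between batches cannot be told from the labels. The members and lists were chosen with earlier results of these data known, so list counts are descriptions. All copies of the 10 symbols were described. Of each other list, at most 4 genes past both thresholds with the largest absolute log2 fold change were named, with the defining markers of other cell types, and for 5 genes the 3 nearest in pattern. Some genes this rule takes are not reported here. Genes outside this rule (otogl2.L, muc1, muc22.S, muc5acl, vwf.L, spdef.S, ddc.L and those said to be named later) were chosen after their values were seen.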

Additional observations from a re-analysis of the deposited data

How the results depend on the processing

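Counts of goblet and small secretory cell genes called (1 higher, 4 lower) were the same in all 16 alternatives. Over all genes the alternatives gave 1346 to 2026 higher and 4496 to 6966 lower, against 1538 and 5471. Scaling to total counts moved the median of all genes by -0.13 (log2). With it the adjusted p of agr2.S was above 0.05 (0.47, adjusted p = 0.0679), as with the deposited adjusted values (0.23, adjusted p = 0.0831). It left 1 higher gene each in regulated exocytosis and in serotonin and monoamine handling. Leaving out single pools gave 0 to 1 higher membrane mucin genes, 1 to 3 serotonin and monoamine genes and 1 to 7 exocytosis genes. The agr2 homeolog difference ranged over 0.21 to 0.50 without single pools and was 0.33 (adjusted p = 0.0244) with a replicate block. The causes of these changes were not tested. Deviations of same-numbered pools correlated at 0.0614, 0.0897 and 0.0343, and those of differently numbered pools at -0.0816 to 0.0311. Same-numbered pools thus had the higher values, but all values were small. Whether the numbers pair pools was not settled, and the main model left pairing out. The replicate block gave 1543 higher and 5383 lower genes and changed no other call of the genes described. The comparison of levels per transcript length was not run, because transcript lengths were not used here. At 0 to 7 counts per Xenobot pool, the sizes of the falls of otog.L, otogl.L and agr3.L are limited by depth.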
